A study of Schizosaccharomyces japonicus with 6 samples.

Results

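The cytosolic ribosomal protein genes of the fission yeast *Schizosaccharomyces japonicus* were taken as the rows of the expression table whose gene symbol begins with rpl or rps followed by a digit. This rule found 130 of 5272 genes, 74 of the large ribosomal subunit (rpl) and 56 of the small subunit (rps), and it used no expression value. The deposited description names a ribosomal protein for all 116 of these genes that carry one, and a mitochondrial one for 0. RNA had been sequenced from 3 strains with 2 libraries each, wild type (WT, strain NIG5572), *pab2*Δ, in which the gene encoding Pab2, which binds poly(A) in the nucleus, is deleted, and *clr4-1*, a temperature-sensitive allele of the gene of the histone H3 lysine methyltransferase Clr4. The *clr4-1* allele came from random mutagenesis by PCR of the gene together with the drug resistance marker natMX6, and is represented by 1 isolate. All strains were grown without treatment in YES rich medium at 30 °C, and total RNA was taken from mid-log cells. NIG5572 is an h- strain with mutant *ura4* and *ade6* alleles, and the study lists *pab2*Δ and *clr4-1* strains of the same background, the former with the marker natMX6 in place of the gene. The series calls the libraries of a strain biological replicates.

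The cytosolic ribosome makes most proteins of the cell, and its small subunit reads the messenger RNA while its large subunit joins the amino acids. Both subunits are built from ribosomal RNA and a fixed set of proteins that are needed in equal numbers, so the genes of these proteins are among the most strongly expressed of a growing yeast and tend to be regulated together. In yeasts many of the proteins are encoded by a pair of nearly identical genes, called paralogs here. Pab2 binds the poly(A) tails of RNA in the nucleus, and in *S. pombe* it takes part in RNA degradation by the nuclear exosome. Clr4 places the methyl mark of heterochromatin.

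The values are FPKM, fragments normalised to the length of the transcript and to the size of the library, so they are levels per length, relative to the rest of the same library, and an amount per cell cannot be read from them. Read numbers cannot be had from them, so sequencing depth is unknown and counting error is not given. The FPKM of all genes summed to between 910209 and 1080821 in a library, with the 2 lowest sums in *pab2*Δ. As a check of the labels, *pab2* (SJAG_04601) had 145 and 142 FPKM in WT cells, 161 and 174 in *clr4-1* cells, and an entry of 0 for both *pab2*Δ libraries. *clr4* had 9.34 and 9.48 FPKM in WT cells and 19.6 and 23.3 in *clr4-1* cells, which carry the mutated gene, so that this level does not check the label. All 130 ribosomal protein genes passed the filter of a mean of at least 1 FPKM that 4899 genes passed, and none was listed at 0 in a library.

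In WT the ribosomal protein genes spanned a wide range of levels. The median of the 130 genes was 2694 FPKM in the first WT library and 2663 in the second. The most abundant was *rpl4101* (SJAG_07013), which encodes L41, a very short basic peptide of the large subunit, at 63438 and 51541 FPKM. Next came *rps29* at 53143 and 51389.6 FPKM, *rpl29* at 39437 and 37789, *rpl4102*, the paralog of *rpl4101*, at 37755 and 33561, and *rps3002* at 30700.5 and 30328. In other yeasts these 5 genes encode very short proteins. The lowest levels were those of *rps14a* (SJAG_01548) at 287 and 285 FPKM, *rpl34b* at 390.2 and 388, *rpl5a* at 395 and 401, *rps002* at 441 and 447 and *rpl13b* at 458 and 488. Each of these 5 is a copy with at least 1 paralog. Across 128 genes with a gene length in the RefSeq table, the WT level and the length had a Spearman correlation of -0.55, a description across genes that share the libraries and the division by length. The 10 most abundant ribosomal protein genes held 46.02% and 44.48% of the summed FPKM of the family in the WT libraries.

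**Figure D1:**
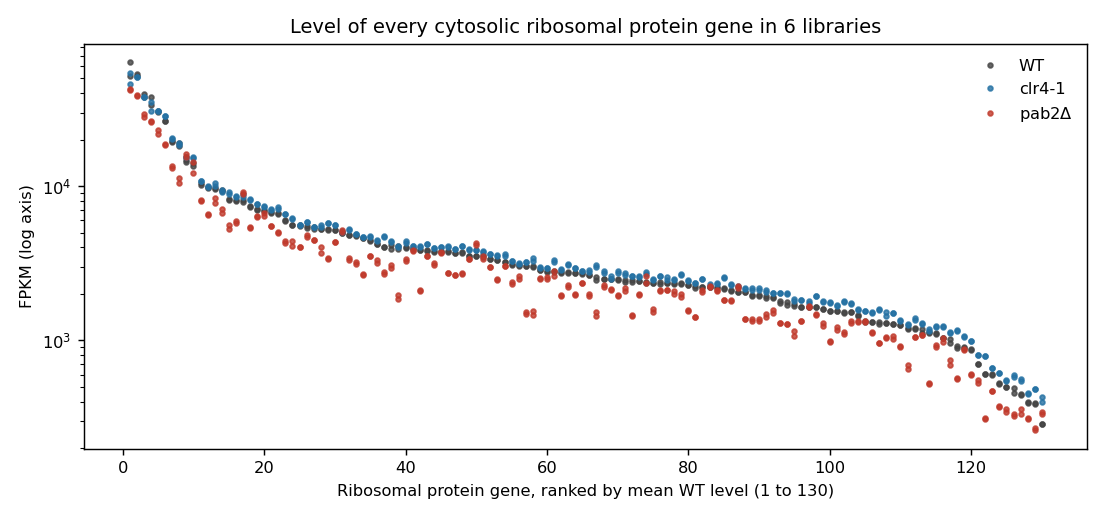
FPKM of each of the 130 ribosomal protein genes (log axis) in the 6 libraries, ranked by mean WT level, with WT in grey, *clr4-1* in blue and *pab2*Δ in red. Red points lie below the grey ones for 117 of the 130 genes, and blue points lie above them for 121.

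Replicate libraries lay close together for these genes. The median absolute difference between the 2 libraries of a strain, on the log2(FPKM + 1) scale, was 0.015 for WT libraries, 0.037 for those of *pab2*Δ and 0.016 for those of *clr4-1*. For all 4899 genes tested it was 0.051, 0.052 and 0.056. The widest gap was that of *rpl4101*, at 0.30 in WT and 0.25 in *clr4-1*, and in *pab2*Δ that of *rpl39* at 0.24.

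The family held most of the summed FPKM in every library. In WT its share was 64.59% and 63.83%. It was 57.73% and 57.12% in *pab2*Δ, below both WT libraries, and 65.67% and 65.18% in *clr4-1*, above both. The mean difference from WT was -6.79 percentage points in *pab2*Δ and 1.22 in *clr4-1*, and the latter was 1.77 without *rpl4101* and *rpl4102*, an alternative chosen after seeing the data. An exact permutation test of 2 against 2 libraries cannot go below p = 0.3333 (two-sided), and no other test was made of these shares. Large subunit genes held 36.04% and 34.96% of the WT sums, 32.13% and 31.87% of the *pab2*Δ sums and 36.17% and 35.33% of the *clr4-1* sums, where they overlapped with WT. Small subunit genes held 28.54% and 28.87% for WT, 25.6% and 25.25% for *pab2*Δ and 29.49% and 29.85% for *clr4-1*, with no overlap between strains. In absolute FPKM the family summed to 689769 and 668698 for WT, 531432 and 519893 for *pab2*Δ and 709748 and 693264 for *clr4-1*. The other genes together summed to 378232 and 378913 for WT, 389118 and 390316 for *pab2*Δ and 371072 and 370315 for *clr4-1*.

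**Figure D2:**
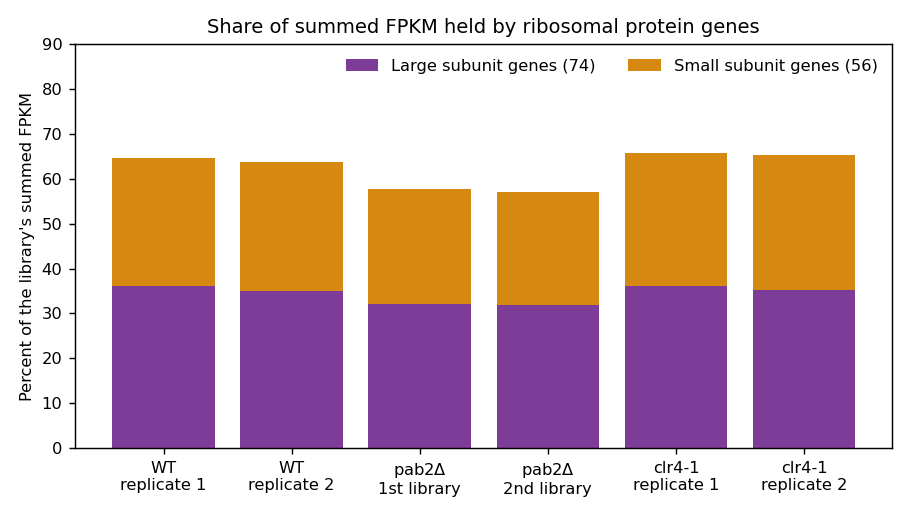
Share of each library's summed FPKM (percent) held by the 74 large subunit genes (purple) and the 56 small subunit genes (orange), 1 stacked bar per library. The *pab2*Δ bars end at 57.73% and 57.12%, below the WT bars at 64.59% and 63.83%.

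The comparison of *pab2*Δ with WT sets cells that lack the nuclear poly(A)-binding protein beside WT cells. The study reports that *pab2*Δ cells grow slowly, more so at lower temperatures. Whether the differences below go with growth was not tested. Most ribosomal protein genes were lower in *pab2*Δ. By limma on log2(FPKM + 1), with Benjamini-Hochberg adjustment over all 4899 genes and a threshold of 0.05, 114 of the 130 were lower, 6 were higher and 10 did not pass. Among all genes tested 19.9% were lower and 53.8% were higher. Both *pab2*Δ libraries lay below both WT libraries for 117 members, against 25.5% of all genes, and above them for 6, against 61.4%. The median log2 fold change of the members was -0.37, a difference of -22.6%, with an interquartile range from -0.50 to -0.18 and a full range from -1.10 to 0.26. For all genes tested the median was 0.19. The SD of the log2 fold changes was 0.261 within the family and 0.704 over all genes, which include the deleted *pab2*. The interquartile ranges were 0.33 and 0.56 wide. For the 35 initiation and elongation factor genes described below the SD was 0.343 and the interquartile range 0.33 wide, like that of the family.

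Both the size and the number of these differences depended on the scaling between libraries. The median of all genes moved from 0.19 as deposited to 0.40 when every library was scaled to the same sum, to -0.0085 with TMM factors (trimmed mean of M values, which centre the bulk of genes), and to -0.066 with scaling to the median gene. The median of the ribosomal protein genes was -0.16, -0.58 and -0.64 in turn. Each factor shifts all genes of a library together, so the gap between the 2 medians is nearly fixed under any scaling. With the same sum 80 members were lower and 26 higher, beside 11.5% and 71% of all genes. TMM factors gave 127 lower and 0 higher, beside 34.6% and 32.9%, and median scaling gave 128 lower and 0 higher, beside 39.8% and 27.8%.

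**Figure D3:**
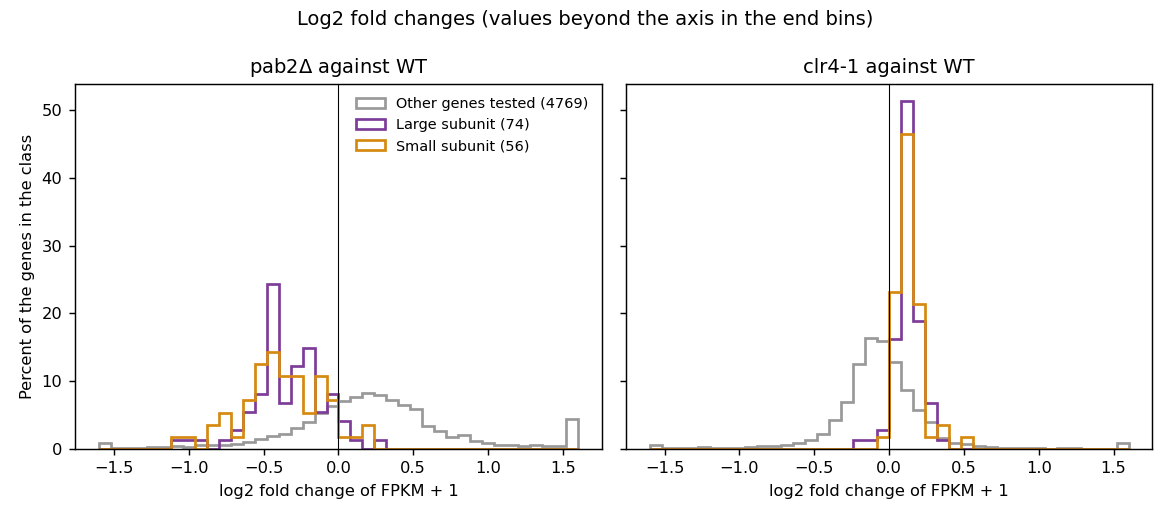
Histograms of log2 fold changes of FPKM + 1 against WT for *pab2*Δ (left) and *clr4-1* (right), as percent of the genes in each class, for 74 large subunit genes (purple), 56 small subunit genes (orange) and the 4769 other genes tested (grey). The family sits left of the other genes in *pab2*Δ, with medians of -0.34 for the large and -0.39 for the small subunit, and slightly right of them in *clr4-1*.

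Of the 74 large subunit genes, 64 were lower in *pab2*Δ, 3 were higher and 7 did not pass, with a median log2 fold change of -0.34. The largest fall was that of *rpl23a* (SJAG_03197), at 4069.6 and 3923 FPKM in WT and 1957 and 1843 in *pab2*Δ. The *pab2*Δ values were less than 50% of either WT value (a log2 fold change of -1.07 with an SE of 0.033, limma adjusted p = 3.82e-06). *rpl38a* (SJAG_04534) fell from 3052 and 3004 FPKM to 1548 and 1451 (a log2 fold change of -1.01 with an SE of 0.035, limma adjusted p = 5.67e-06). *rpl1b* (SJAG_03122), a gene of the protein that forms the mobile L1 stalk, where spent transfer RNA leaves the ribosome, fell from 603 and 604 FPKM to 316 and 307 (a log2 fold change of -0.95 with an SE of 0.022, limma adjusted p = 1.52e-06). In each of these genes the 2 *pab2*Δ values were close together and far below WT. *rpl36a* fell less, from 2591 and 2477 FPKM to 1535 and 1432 (a log2 fold change of -0.77 with an SE of 0.04, limma adjusted p = 2.37e-05). The most abundant large subunit genes moved near the median of the family. The log2 fold change was -0.44 for *rpl4101* (limma adjusted p = 0.0157), -0.45 for *rpl4102* (adjusted p = 0.00323) and -0.42 for *rpl29* (adjusted p = 7.44e-05). Genes of the protein L5, which carries the smallest ribosomal RNA into the large subunit, gave -0.36 for *rpl5a* (adjusted p = 4.41e-05) and -0.32 for *rpl5b* (adjusted p = 1.92e-05).

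Of the 56 small subunit genes, 50 were lower in *pab2*Δ, 3 were higher and 3 did not pass, with a median log2 fold change of -0.39. *rps22b* (SJAG_01512) fell the most of all 130 genes, from 1131 and 1123 FPKM in WT to 531 and 523 in *pab2*Δ (a log2 fold change of -1.10 with an SE of 0.023, limma adjusted p = 1.09e-06). Both *pab2*Δ values lay far below WT. *rps14b* (SJAG_03424), a gene of a protein on the platform of the small subunit, fell from 4595 and 4601 FPKM to 2664 and 2673 (a log2 fold change of -0.78 with an SE of 0.013, limma adjusted p = 5.66e-07). *rps2802* (SJAG_02749), among the 10 most abundant members, fell from 18256 and 18975 FPKM to 11227 and 10548 (a log2 fold change of -0.77 with an SE of 0.034, limma adjusted p = 1.30e-05). *rps13a* fell from 897 and 913 FPKM to 558 and 568 (a log2 fold change of -0.68 with an SE of 0.021, limma adjusted p = 3.76e-06). These 3 genes were also apart from WT in both libraries. The abundant *rps29* and *rps3002* had log2 fold changes of -0.43 (limma adjusted p = 1.30e-05) and -0.44 (adjusted p = 7.15e-05), near the median of the family.

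By a stricter fold rule, under which every quotient of a *pab2*Δ to a WT library had to be below 0.5 or above 2, 2 members were down, *rpl23a* and *rps22b*, and 0 were up. The rule called 2.02% of all genes down and 7.6% up. With the first *pab2*Δ library left out, 4 members were down, *rpl38a* among them, whose ratio of strain means was 0.495. The share of all genes was not counted without that library.

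The 6 members that were higher in *pab2*Δ on the deposited scale were *rpl10*, *rps14a*, *rps2801*, *rps27b*, *rpl24a* and *rpl14*, and with TMM factors or median scaling none of the 6 passed as higher. *rpl10* (SJAG_04176), the gene of a protein next to the site of peptide bond formation and without a paralog here, was at 3517 and 3524 FPKM in WT and 4296 and 4146 in *pab2*Δ (a log2 fold change of 0.26 with an SE of 0.02, limma adjusted p = 0.000107). *rps14a*, the least abundant member, was at 287 and 285 FPKM in WT and 331 and 342 in *pab2*Δ (a log2 fold change of 0.23 with an SE of 0.042, limma adjusted p = 0.00336). *rps2801* was at 8139 and 7911 FPKM in WT and 9100.0 and 8910.3 in *pab2*Δ (a log2 fold change of 0.17 with an SE of 0.027, limma adjusted p = 0.00207). In all 3 both *pab2*Δ libraries lay above both WT libraries as deposited. The increases of *rps27b*, *rpl24a* and *rpl14* were smaller, with log2 fold changes of 0.11, 0.10 and 0.049. The 10 members that did not pass had log2 fold changes between -0.077 and 0.061 and adjusted p-values between 0.124 and 0.996 from limma. They were *rpl17b*, *rpl19a*, *rpl20Aa* (SJAG_04897), *rpl25b*, *rpl35Aa*, *rpl39*, *rpl44*, *rps10a*, *rps13b* and *rps19a*. A second gene, SJAG_02283, carries the same symbol *rpl20Aa* and was lower.

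**Figure D4:**
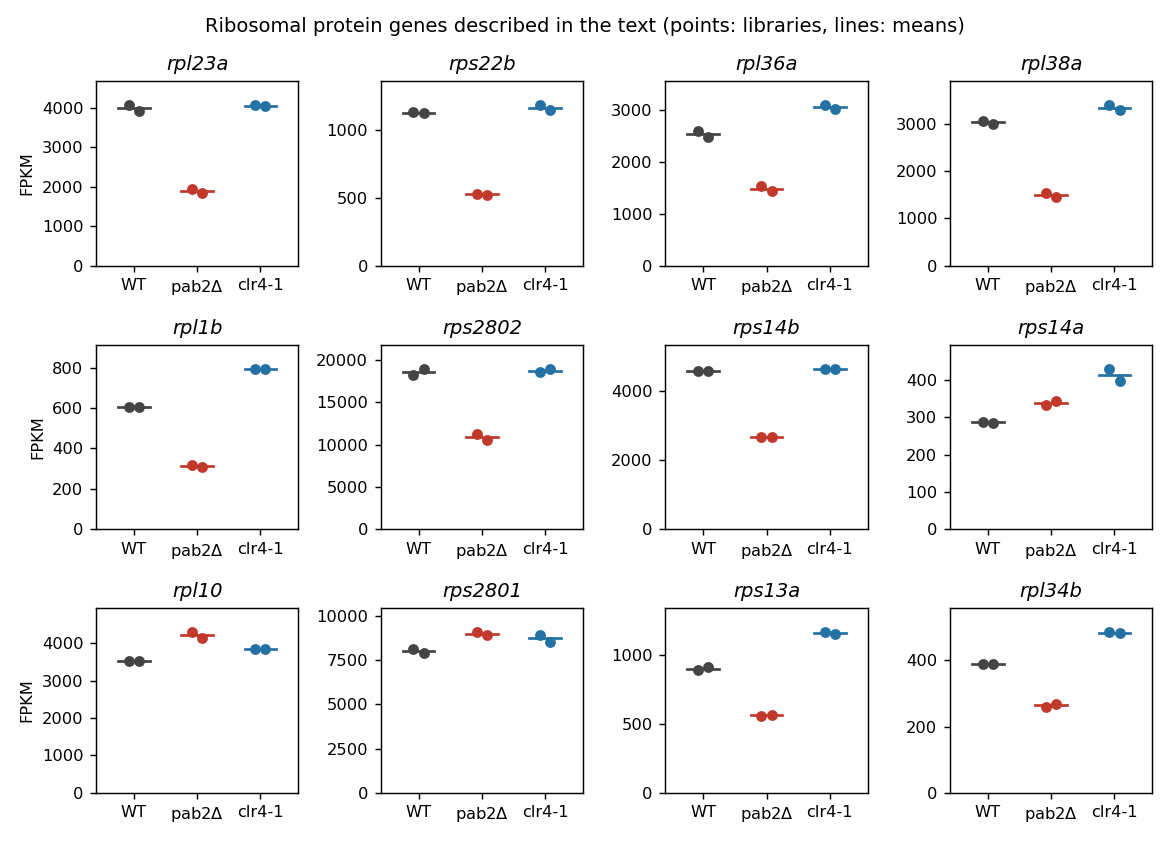
FPKM of 12 ribosomal protein genes in the libraries (points) of WT, *pab2*Δ and *clr4-1*, with the mean of each strain as a line and each vertical axis starting at 0. In the first 7 panels the *pab2*Δ points lie well below WT, as at *rpl23a*, whereas *rps14a*, *rpl10* and *rps2801* have them above WT.

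The comparison of *clr4-1* with WT addresses an impaired heterochromatin methyltransferase, whose activity at 30 °C was not measured in these data. Most ribosomal protein genes were slightly higher in *clr4-1*. Of the 130 members, 106 were higher by limma, 0 were lower and 24 did not pass, where 15.1% of all genes tested were higher and 27.5% lower. Both *clr4-1* libraries lay above both WT libraries for 121 members, against 26.7% of all genes, and below them for 1, against 46.8%. The median log2 fold change was 0.12, a difference of 8.32%, with an interquartile range from 0.081 to 0.17 and a full range from -0.20 to 0.53. The median of all genes was -0.064, and the SD of the log2 fold changes was 0.0915 within the family. The fold rule called 0 members up and 0 down, where it called 0.796% of all genes up and 1.18% down. The number called moved with the scaling, to 120 with TMM factors (20.7% of all genes higher and 18.3% lower), 122 with median scaling (22.7% and 15.4%) and 80 with the same sum in every library (12.6% and 29.3%), the last with 1 member lower. It also moved with the libraries used, to 67 without the first WT library, 63 without the second, and 68 without either *clr4-1* library.

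Of the large subunit genes, 59 of 74 were higher in *clr4-1* and 15 did not pass, with a median log2 fold change of 0.12. *rpl1b* rose from the 603 and 604 FPKM of WT to 792 and 795 in *clr4-1* (a log2 fold change of 0.39 with an SE of 0.022, limma adjusted p = 0.000144). *rpl34b* rose from 390.2 and 388 FPKM to 486 and 482 (a log2 fold change of 0.31 with an SE of 0.024, limma adjusted p = 0.000488). Both are among the least abundant members, and in both the strains were well apart. *rpl13b*, another low one, had a log2 fold change of 0.31 (limma adjusted p = 0.00234), and *rpl5a* one of 0.19 (adjusted p = 0.00199). The most abundant gene, *rpl4101*, was at 54419 and 45784 FPKM in *clr4-1*, overlapping with WT (a log2 fold change of -0.20 with an SE of 0.12, limma adjusted p = 0.224). *rpl29* was at 37939 and 37726 FPKM in this mutant (a log2 fold change of -0.029, limma adjusted p = 0.466), and here too the strains overlapped.

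Of the small subunit genes, 47 of 56 were higher in *clr4-1* and 9 did not pass, with a median log2 fold change of 0.11. The largest rise of the family was that of *rps14a*, from 287 and 285 FPKM in WT to 430.0 and 397 in *clr4-1* (a log2 fold change of 0.53 with an SE of 0.042, limma adjusted p = 0.000544). *rps13a* rose from 897 and 913 FPKM to 1171 and 1158 (a log2 fold change of 0.36 with an SE of 0.021, limma adjusted p = 0.000174). *rps002*, one of 3 genes of the protein S0, rose from 441 and 447 FPKM to 549 and 565 (a log2 fold change of 0.32 with an SE of 0.039, limma adjusted p = 0.00225). All 3 had both *clr4-1* libraries above WT. *rps29*, the most abundant small subunit gene, was at 50916 and 50829.5 FPKM in *clr4-1* and was the 1 member with both libraries below both from WT (a log2 fold change of -0.039, limma adjusted p = 0.152). The 24 members that did not pass, of both subunits, had log2 fold changes between -0.20 and 0.14.

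Less abundant members tended to have the higher log2 fold changes in *clr4-1*. The log2 fold change and the WT level of the 130 genes had a Spearman correlation of -0.63 in *clr4-1* and of -0.019 in *pab2*Δ. For the 4769 other genes tested the same correlation was 0.016 in *clr4-1* and -0.39 in *pab2*Δ. With gene length, over 128 members, it was 0.21 in *clr4-1* and 0.015 in *pab2*Δ. These are descriptions across genes, which share the libraries, the WT value that enters both axes, and the pseudocount of 1 FPKM.

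The direct comparison of the mutants does not use the WT levels that both contrasts above share, although the WT libraries still entered the estimate of the spread. Of the 130 members, 123 were lower in *pab2*Δ than in *clr4-1* by limma, 1 was higher and 6 did not pass, where 17.4% of all genes were lower and 61.1% higher. A fit of the 4 mutant libraries alone gave 121 lower and 1 higher. Both *pab2*Δ libraries lay below both *clr4-1* libraries for 125 members, against 21.2% of all genes, and above them for 1, against 68%. The median log2 difference, *pab2*Δ against *clr4-1*, was -0.48. It was -0.25 with the same sum in every library, where 96 members were lower and 11 higher (10.2% and 77.3% of all genes), -0.75 with TMM factors (34.2% of all genes lower and 34.8% higher) and -0.84 with median scaling (40.3% and 28%), and with the last 2 all 130 members were lower. The 1 member that was higher in *pab2*Δ was *rpl10*, with a log2 difference of 0.13 (limma adjusted p = 0.00151), which turned to -0.14 with TMM factors and -0.23 with median scaling. With the second *pab2*Δ library left out, 2 members were higher, *rps27b* being the other. The largest difference was at *rpl1b*, with a log2 difference of -1.35 (standard error 0.022, limma adjusted p = 5.90e-07). Other large differences were -1.16 at *rpl38a*, -1.14 at *rps22b* and -1.09 at *rpl23a*.

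The 2 contrasts with WT share the WT libraries, so their calls are given only gene by gene. Among the members lower in *pab2*Δ and higher in *clr4-1* as deposited, the 5 with the largest direct difference included *rpl1b*, *rpl38a*, *rps13a* and *rpl36a*. The log2 fold changes, in *pab2*Δ and in *clr4-1*, were -0.95 and 0.39 for *rpl1b*, -1.01 and 0.14 for *rpl38a*, -0.68 and 0.36 for *rps13a*, and -0.77 and 0.27 for *rpl36a*.

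Paralogs often differed in level. By symbol and description, 110 of the 130 genes fell into 54 groups, 52 pairs and 2 groups of 3 (*rps0* and *rps23*), and 20 genes had no paralog. In WT the ratio of the most to the least abundant paralog had a median of 1.62 and ranged from 1.01 at *rps15* to 16.1 at *rps14*, and it was above 2 in 19 groups. After *rps14* the widest ratios were 13.8 at *rpl34* and 6.26 at *rpl1*. In these 3 groups 1 copy supplied most of the signal. Reads from stretches that paralogs share may have been split between them, and how this was handled is not given in the sources used here. *rps23a* and *rps23c* had identical values in all 6 libraries, so they cannot be told apart and may hold 1 measurement.

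The share of each paralog within its group does not depend on scaling between libraries. *rps14a* made up 5.88% and 5.84% of the *rps14* signal for WT, 11.1% and 11.3% for *pab2*Δ and 8.45% and 7.87% for *clr4-1*. Its share was higher in both mutants than in WT, with no overlap. *rps2801* made up 30.8% and 29.4% of the *rps28* signal for WT, 44.8% and 45.8% for *pab2*Δ and 32.5% and 31.2% for *clr4-1*. This share was far higher in *pab2*Δ and slightly higher in *clr4-1* than in WT, with no overlap. *rpl23a* made up 64.7% and 63.9% of the *rpl23* signal for WT, 48.1% and 47.1% for *pab2*Δ and 61.8% and 61.9% for *clr4-1*. The more abundant of the 2 genes in WT was thus the less abundant in both *pab2*Δ libraries, and in *clr4-1* its share lay slightly below WT. *rpl1b* made up 13.7% and 13.9% of the *rpl1* signal for WT, 8.99% and 9.02% for *pab2*Δ and 16.7% and 16.8% for *clr4-1*. *rpl34b* made up 6.74% and 6.82% of the *rpl34* signal for WT, 5.47% and 5.66% for *pab2*Δ and 8.15% and 8.10% for *clr4-1*. The shares of these 2 minor copies were below WT in *pab2*Δ and above it in *clr4-1*.

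In *pab2*Δ the log2 fold changes of paralogs differed by a median of 0.21 between the highest and the lowest of a group. The difference was 1.02 at *rps14*, 0.987 at *rpl23* and 0.941 at *rps28*, where the values were 0.23 for *rps14a* and -0.78 for *rps14b*, -0.086 for *rpl23b* and -1.07 for *rpl23a*, and 0.17 for *rps2801* and -0.77 for *rps2802*. In 41 of the 54 groups every paralog was lower, in 8 at least 1 did not pass, and in 5 (*rps14*, *rps28*, *rpl24*, *rps27* and *rpl14*) 1 paralog was higher and the other lower. With the same sum in every library, 13 groups had a higher and a lower paralog, and with TMM factors 0 had. The least abundant paralog had the lower log2 fold change in 28 of the 54 groups. No test was made of the difference between paralogs.

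**Figure D5:**
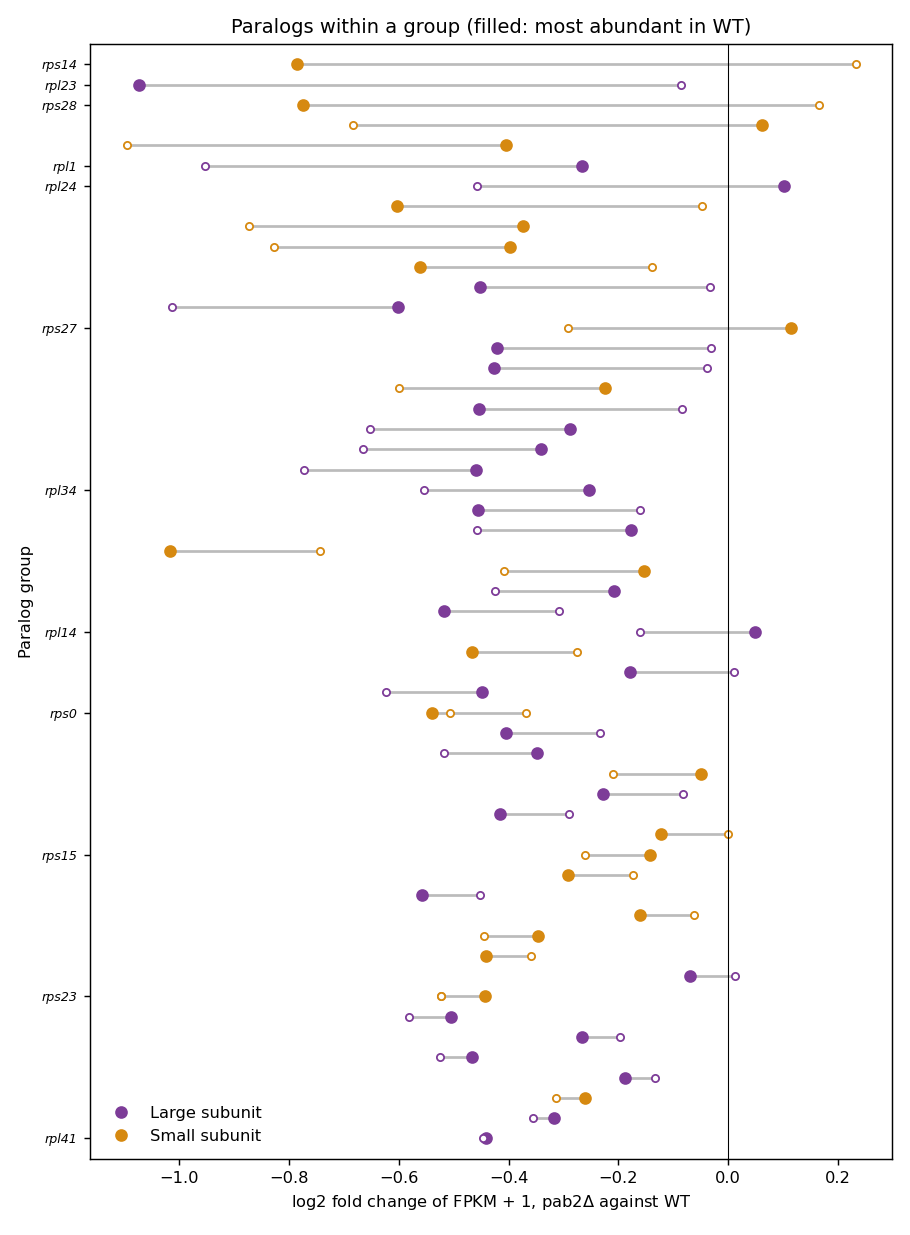
Log2 fold change of FPKM + 1 in *pab2*Δ against WT for the paralogs of each of the 54 groups, sorted by the difference within a group (grey line), with the paralog most abundant in WT as a filled point and large subunit groups in purple, small subunit groups in orange, and only groups named in the text labelled. The widest lines are those of *rps14* (1.02), *rpl23* (0.987) and *rps28* (0.941), and most points lie left of 0.

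In *clr4-1* paralogs differed less, by a median of 0.055 in log2 fold change. The largest differences were 0.511 at *rps14*, 0.332 at *rpl1* and 0.283 at *rpl34*. In these groups the minor copy rose, and the major copy had log2 fold changes of 0.017 for *rps14b* (limma adjusted p = 0.35), 0.061 for *rpl1a* (adjusted p = 0.0506) and 0.031 for *rpl34a* (adjusted p = 0.149). Every paralog was higher in 38 of the 54 groups, and in 16 at least 1 did not pass.

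When the FPKM of paralogs were added, the 130 genes gave 74 ribosomal proteins. Ribosomal proteins whose genes carry other symbols, such as those of the stalk described below, are not among them. The ratio of the *pab2*Δ to the WT mean had a median of 0.777 and was below 1 for 73 of the 74 as deposited. The only ratio above 1 was 1.2, for *rpl10*, and *rps27* and *rpl14* came to 0.999 each. In *clr4-1* the median ratio was 1.08, with 71 proteins above 1. The 3 below 1 were *rpl41* (0.89), *rps29* (0.973) and *rpl29* (0.98), which are encoded by the 4 most abundant genes. The highest ratio was 1.2, for *rpl17*.

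In the RefSeq annotation of assembly SJ5, used here only for the order of genes, 12 members lay next to another member, in 5 runs. The longest held 4, *rps16a*, *rpl13b*, *rps14b* and *rpl701*, with log2 fold changes in *pab2*Δ of -0.35, -0.52, -0.78 and -0.29. The paralogs of the first 2, *rps16b* and *rpl13a*, were neighbours as well, with -0.44 and -0.47. All 6 genes were lower in *pab2*Δ. The other runs were *rpl27b* with *rps001* (-0.46 and -0.54), *rpl35* with *rpl9b* (-0.26 and -0.46) and *rps20* with *rps2* (-0.59 and -0.37), and these were lower too. Of all 130 members 114 were lower, so these falls cannot be read as particular to neighbours.

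Other genes of translation were counted in the same fit. The proteins of the ribosomal stalk, an extension of the large subunit that recruits elongation factors, lie outside the symbol rule, and all 5 of their genes were lower in *pab2*Δ, with a median log2 fold change of -0.62. In *clr4-1* 4 of the 5 were higher, with a median of 0.071. These medians kept their sign under every scaling, between -0.90 and -0.42 and between 0.052 and 0.15, while the count higher in *clr4-1* was 2 with the same sum in every library and 5 with the other factors. The lowest in *pab2*Δ was *rpp203* (SJAG_02871), at 5122 and 5095 FPKM for WT, 2023 and 2049 for *pab2*Δ and 5301 and 5315 for *clr4-1* (for *pab2*Δ, a log2 fold change of -1.33 with an SE of 0.015, limma adjusted p = 2.41e-07). It fell by more than any of the 130 members, and by the fold rule it was down. *rpp0*, the base of the stalk, had a log2 fold change of -0.75 (limma adjusted p = 1.38e-05), and *rpp1a* had -0.46 in *pab2*Δ and 0.17 in *clr4-1*.

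Of 35 initiation and elongation factor genes, 12 were higher and 17 lower in *pab2*Δ, with a median log2 fold change of -0.086, between those of the ribosomal protein genes and of all genes. With the same sum in every library 18 were higher and 6 lower and the median turned to 0.12, whereas TMM factors gave 1 and 28, and median scaling 0 and 32. In *clr4-1* 21 were higher and 0 lower, with a median of 0.10, and 16 to 31 were higher under the other scalings. *tif512* was at 1379 and 1425 FPKM in WT and 469 and 474 in *pab2*Δ, the 1 factor gene down by the fold rule (a log2 fold change of -1.57 with an SE of 0.023, limma adjusted p = 3.69e-07). *tif51* rose in *clr4-1*, from 659 and 666 to 986 and 1062 FPKM (a log2 fold change of 0.63 with an SE of 0.046, limma adjusted p = 0.000441). Of 58 genes of the mitochondrial ribosome, which serves the organelle alone, 25 were higher and 6 lower in *pab2*Δ (median 0.13), and 3 were higher and 12 lower in *clr4-1* (median -0.11). These medians lay near those of all genes, 0.19 and -0.064. In *pab2*Δ the median turned to -0.081 with TMM factors, with 9 higher and 19 lower, and to -0.14 with median scaling, with 8 and 24, and with the same sum 35 were higher and 4 lower. *mrpl39* was the 1 of them up by the fold rule in *pab2*Δ, at 25.6 and 24.3 FPKM in WT and 81.5 and 66.2 in *pab2*Δ. Its log2 fold change was 1.52 with an SE of 0.33 (limma adjusted p = 0.00739). *mrps16* fell the most of them in *pab2*Δ, from 78.2 and 75.8 FPKM to 36.3 and 44.3 (a log2 fold change of -0.92 with an SE of 0.096, limma adjusted p = 0.000335).

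Of 9 genes of ribosomal protein chaperones and regulators known from yeasts, 3 rose and 4 fell in *pab2*Δ as deposited. The counts were 1 and 5 with TMM factors, 1 and 6 with median scaling and 4 and 2 with the same sum. In *clr4-1* 4 rose and 3 fell, as with the same sum, and TMM factors gave 5 and 1 and median scaling 6 and 1. Of all genes tested 53.8% were higher and 19.9% lower in *pab2*Δ as deposited, and 15.1% and 27.5% in *clr4-1*. *loc1*, known in *S. cerevisiae* as a factor of large subunit assembly, fell in *pab2*Δ (a log2 fold change of -0.67, limma adjusted p = 0.000162) and rose in *clr4-1* (0.36, adjusted p = 0.00605). *tsr2*, a chaperone of a small subunit protein in *S. cerevisiae*, fell in *pab2*Δ (-0.60, adjusted p = 5.36e-05). *rrb1*, a chaperone of the protein L3 in *S. cerevisiae*, rose in *clr4-1* (0.36, adjusted p = 0.000519). *fhl1*, a transcription factor of ribosomal protein genes, was at 4.25 and 3.99 FPKM in WT and 3.10 and 2.68 in *clr4-1* (a log2 fold change of -0.40, limma adjusted p = 0.0279).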

How the data were processed

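RNA-seq libraries (2 per strain) were made by the authors with a strand-specific kit, and they deposited 1 table of FPKM values for 5272 genes. The unit is not written in the table and was inferred from its numbers, fractional ones whose column sums are unequal. The submitters' processing notes name FastQC 0.11.6, STAR 2.5.3a and StringTie 1.3.1c, and the genome build, the annotation and the handling of reads that map to several genes are not given in the sources used here. The table also holds the authors' ratios of mutant to WT, which were not used. WT and *clr4-1* columns carry the replicate number of the labels, and the *pab2*Δ columns carry none, so they were assigned to the strain only and are called first and second in column order.

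Genes averaging 1 FPKM or more over the 6 libraries were tested on log2(FPKM + 1) with limma 3.58.1 (eBayes with trend) in R 4.3.3, with all 3 strains in 1 fit, no covariate, and Benjamini-Hochberg adjustment over the 4899 genes at 0.05. Fold changes on this scale understate those of genes with low FPKM. The fit was also run on values simulated from the table, with independent noise, no shift between libraries and most genes unchanged. It called 83 of 100 genes changed 1.5-fold, 92 of 100 changed 2-fold, and 7 of 4699 unchanged genes in *pab2*Δ. Smaller changes, such as the family medians, were not simulated. Other values came from Python 3.11.15 (pandas 2.3.3, numpy 2.4.6, scipy 1.17.1), and plots from matplotlib 3.10.9. Paralogs are genes whose symbols agree without the copy suffix and whose descriptions do not differ. *rpl8*, described as L7a, was kept apart from *rpl8a* and *rpl8b*. RefSeq rows matched 128 of the 130 members by locus tag.

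Named genes were those called by the fold rule, the 5 largest increases and decreases in each mutant among members past the threshold, the 5 highest and 5 lowest in WT, the paralog groups with the most unequal levels or fold changes (3 each), the 5 largest opposite changes, and in the other lists the genes called by the fold rule and the 2 largest changes per mutant. Of the genes that this rule took in, 1 is not reported here. Further genes were named after their values were seen, where a count or a group is spelled out. The members and lists were chosen with earlier results of these data known. The list of stalk symbols also took in 3 genes of RNase P (*rpp1*, *rpp21* and *rpp40*), which were set aside. The chaperone *syo1* was not found by symbol. Alternatives were a pseudocount of 0.1 or 5, the filter dropped or raised to 5 FPKM, no trend, scaling by TMM factors, to the same sum or to the median gene, fits of 4 libraries, a replicate block, other fold rules, and leaving out each library, where a lone library is assumed to vary like the others. Promoters and protein sequences were not analysed here.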

Additional observations from a re-analysis of the deposited data

How the results depend on the processing

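Shares of all genes called were counted by limma as deposited and under the scalings, and by the fold rule as deposited. Counts of members at other settings have no such share beside them and cannot be read as particular to the family. Without 1 library the median log2 fold change of the members in *pab2*Δ against WT lay between -0.371 and -0.350. The count of 2 by the fold rule ranged from 2 to 4. Of the settings, TMM factors and median scaling left 0 members higher in *pab2*Δ against WT and 0 against *clr4-1*, and the same sum in every library gave 26 and 11. The 106 members higher in *clr4-1* were 66 without the trend and between 63 and 109 without 1 library. The 0 lower in *clr4-1* became 1 with the same sum. By the fold rule 4 members were down in *pab2*Δ with a quotient of means, 15 at 1.5-fold and 6 with TMM factors. The share of all genes down under these rules was not counted. The number of members higher against *clr4-1* was 1 to 2 without 1 library. The difference in summed share, -6.79 percentage points in *pab2*Δ, ranged from -7.17 to -6.41 without 1 library, and that of 1.22 in *clr4-1* from 0.835 to 1.60, and without *rpl4101* and *rpl4102*, chosen after seeing the data, it was 1.77. Without *rps23c*, *rpl4101* and *rpl4102*, also chosen after seeing the data, 111 members were lower in *pab2*Δ and 106 higher in *clr4-1*. In *pab2*Δ against WT, with TMM factors and median scaling in turn, log2 fold changes turned to -0.048 and -0.11 for *rps2801*, -0.10 and -0.16 for *rps27b*, and -0.11 and -0.17 for *rpl24a*. With median scaling they turned to -0.014 for *rpl10* and -0.042 for *rps14a*, and with the same sum to 0.12 for *rpl23b*. Against *clr4-1*, with TMM factors and median scaling in turn, they turned to -0.14 and -0.23 for *rpl10*, -0.23 and -0.32 for *rps2801*, and -0.25 and -0.33 for *rps27b*, and with the same sum to 0.22 for *rpl24a*. These turns follow from the factors, which shift all genes of a library together. Of 1268 values of named members under the alternatives, 1192 kept direction and side of the threshold, 25 gained it, 35 lost it and 16 turned.

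WT and *clr4-1* share replicate numbers in the labels, which do not say that a number marks a shared batch or day. Deviations of same-numbered libraries correlated at 0.673 over the 130 members and at -0.0945 over all 4899 genes, so whether the numbers pair the libraries is not settled. Among the members *rpl4101* had the widest gap between replicates, 0.30 in WT and 0.25 in *clr4-1*, beside medians of 0.015 and 0.016. The correlation without this gene was not computed. The fit with the replicate as a block gave 105 members higher in *clr4-1* and 2 lower, *rpl4101* and *rpl4102*. The share of all genes was not counted in that fit. No replicate block was fitted for *pab2*Δ, because its columns carry no replicate number. The FPKM hold no depth, so no limit of detection is given.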
